A study of Mus musculus with 2 samples.

Results

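Brown early preadipocytes bAPC 5 were the smallest, among the cells with a label here, of 7 precursor clusters that the authors named in cultured brown adipose cells. The cells were taken by their label in the authors' table of barcodes and clusters, in which they are called early preadipocytes B5. They numbered 115 of the 1999 brown precursor cells with a label here, 5.75% (exact 95% binomial interval 4.77 to 6.87). Only part of the table was used here, so that most brown precursors carry no label, and the 115 cells need not be all the bAPC 5 cells of the library. When labels were carried over to unlabelled cells by their nearest labelled neighbours, 283 of 5963 brown precursors, 4.75%, were named bAPC 5. This share may be too low: tried on labelled cells that were held out, the vote named only 79 cells bAPC 5 where 115 carry that label. The other 1884 labelled cells were 581 bAPC 1, 415 bAPC 2, 171 bAPC 3, 142 bAPC 4, 296 committed adipogenic precursors (bCAPs) and 279 fibroadipogenic-like cells (bFAPLs).

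The study isolated stromal cells from the interscapular brown and the subcutaneous white depots of male and female C57/BL6 pups, 4 pups to a pool. The age is P0 by the labels, whereas the methods of the study give P1. They were grown to confluency and read with the 10x Genomics 3′ assay, which counts unique molecular identifiers (UMIs, single tagged transcripts) per gene and cell. Each depot gave 1 library, so that no value has a replicate and no test between groups was made. The brown library holds 7009 cells and the white library 5261, with medians of 26411 and 26239 UMIs, and the 2 share 9 barcodes, none of them of a bAPC 5 cell. The labels name no agent and no transgene for either depot. The level of a gene in a cluster is its UMIs summed over the cells and scaled to counts per 1000000 UMIs of those cells (CPM), and the log2 ratio compares bAPC 5 with the other 1884 cells. Intervals are exact 95% Poisson, binomial or conditional binomial intervals and cover counting error only. Since the clusters were made from these same counts, the levels describe the cells and test nothing.

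Insulin-like growth factor 1, encoded by Igf1, and its fetal relative Igf2 signal through the receptor Igf1r, while binding proteins of the Igfbp family hold the ligands in the matrix and proteases such as Pappa release them. Dlk1 (Pref-1) is a membrane protein of preadipocytes that restrains their differentiation and is lost as fat cells form. Dlk1, Igf2 and many other regulators of fetal growth are imprinted, that is, transcribed from only the maternal or only the paternal copy, and many of them are turned down after birth.

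Both genes that mark the label were highest in bAPC 5 among the 7 brown clusters. Igf1 (ENSMUSG00000020053, chr10:87858265-87937042, GRCm38) was at 179 CPM (165 to 194) in bAPC 5. It was at 76.9 CPM in bCAPs, 53.2 in bAPC 1, 43.1 in bAPC 3, 34.6 in bAPC 2, 33.5 in bAPC 4 and 27.6 in bFAPLs. On the log2 scale the level in bAPC 5 was 1.22 above that of bCAPs, the next cluster. The bAPC 5 cells held from 0 to 24 Igf1 UMIs with a median of 4, and 86 of the 115 lay above the upper quartile of the other precursors. Dlk1 (ENSMUSG00000040856) ranged from 0 to 174 UMIs a cell with a median of 19. Its median over cells was 777 CPM in bAPC 5 and 153 in the other precursors, and its summed level came down from 1021 CPM in bAPC 5 to 517 in bAPC 1 and 136 in bCAPs. Igf1 and Dlk1 were found in the same cell in 93 of the 115 cells, 80.9% (72.5 to 87.6), against 42.6% of the other precursors, and no bAPC 5 cell lacked both.

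**Figure D1:**
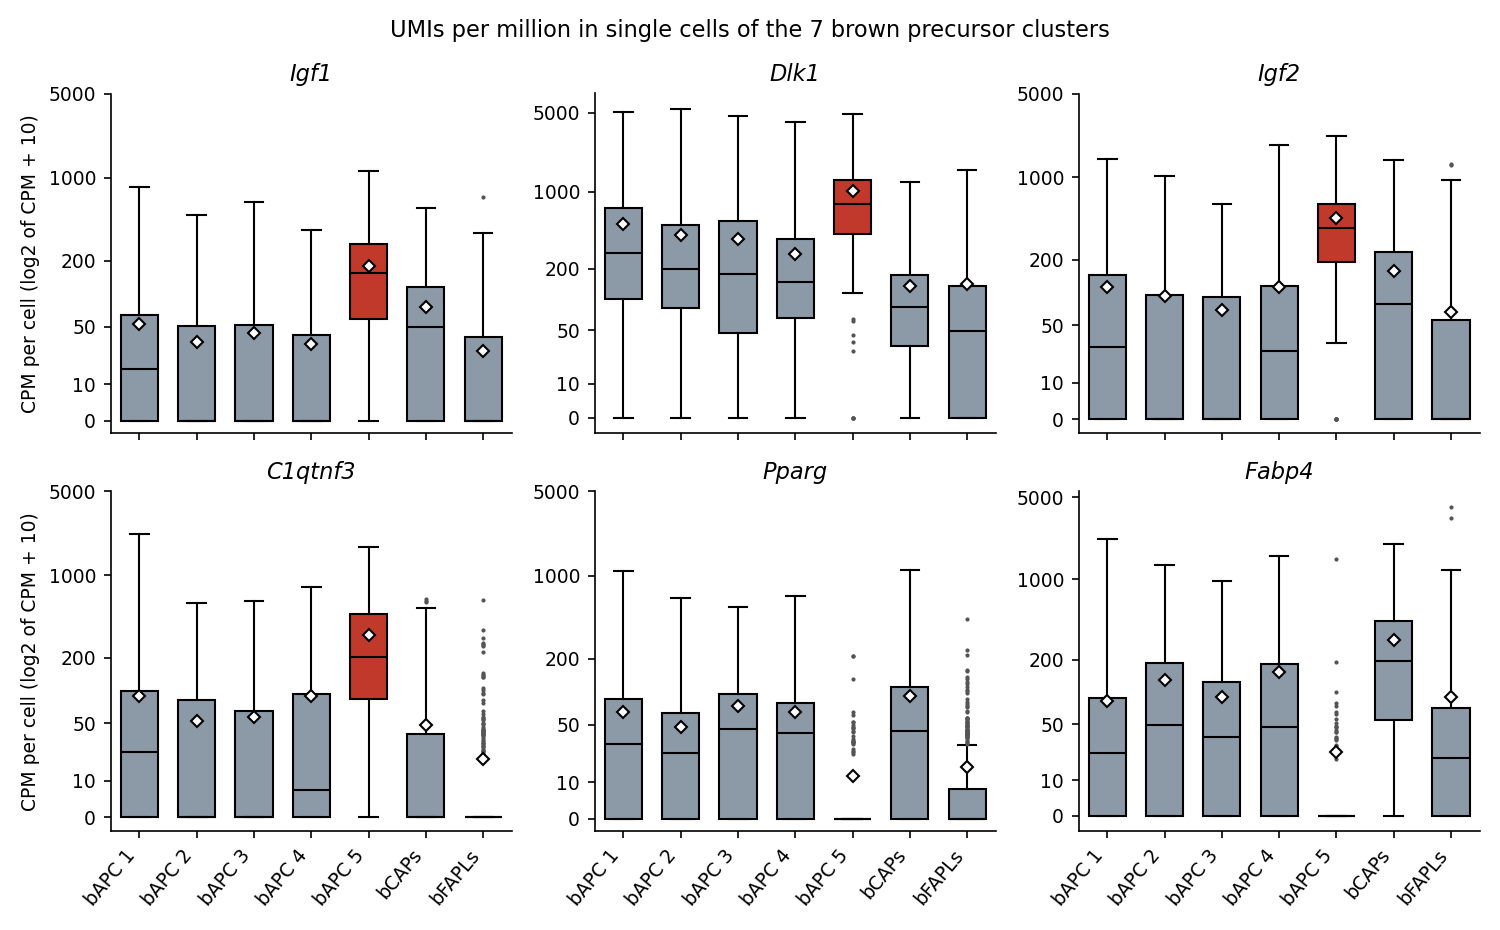
Level of 6 genes in single cells of the 7 brown clusters, in CPM on a log2(CPM + 10) axis with CPM tick labels. Boxes span the quartiles with the median as a line, whiskers reach the last cell within 1.5 box lengths, dots are cells beyond them, and diamonds are levels summed over the cluster. bAPC 5 (red) has the highest boxes for Igf1, Dlk1, Igf2 and C1qtnf3, and its median is 0 for Pparg and Fabp4.

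Free RNA in droplets gives UMIs in cells that do not transcribe a gene, and so the shares of cells were set beside those of 22 labelled glial cells of the brown library. Dlk1 was found in 96.5% of bAPC 5 cells, 86.9% of the other precursors and 27.3% of glial cells, at median depths of 27265, 26886 and 17175 UMIs. With every cell thinned to 10000 UMIs, the shares were 93.0%, 69.4% and 13.6%, and no cell of these groups was too shallow. For Igf1 the shares were 84.3%, 47.7% and 63.6% unthinned and 71.3%, 27.3% and 40.9% thinned. The Igf1 share in the other precursors was therefore not above that in glial cells, and the share in bAPC 5 was. Glial cells had Igf1 more often than Dlk1 (63.6% and 27.3%), whereas the other precursors had it less often (47.7% and 86.9%). Whether the 22 glial cells transcribe Igf1 themselves was not tested. Their share is thus no measure of free Igf1 RNA, and Igf1 in the other precursors cannot be called background from it. Igf1 was also at 463 CPM in 27 labelled myeloid cells of the library. The 5 myeloid markers (Ptprc, Csf1r, Cd68, Tyrobp and Lyz2) summed to 11.8 CPM in bAPC 5, 10.1 in the other precursors and 8376 in those myeloid cells, and Ptprc was at 0 UMIs in bAPC 5.

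In depth and quality the bAPC 5 cells were close to the other precursors. Their median of 27265 UMIs lay between the 23668 of bAPC 3 and the 31156 of bAPC 4, and their median mitochondrial share was 3.07% against 2.96%. At equal depth the medians were 3485 and 3475 genes a cell. In G1 were 73.9% of the cells (64.9 to 81.7) and 65.1% of the other precursors (62.9 to 67.2), while bAPC 3 was at 41.5% and bAPC 4 at 76.8%. At 10000 UMIs a cell the first 2 shares were 72.2% and 64.1%. None of the 23 proliferation genes with at least 10 CPM in either group was past 1.5-fold in the summed counts. With cells thinned to 10000 UMIs 1 was higher and 2 were lower, beside 6.16% and 6.15% of all genes. The 2 were Mcm5 (-0.79 on the log2 scale) and Pcna (-0.67). In female cells alone 2 were lower, beside 3.59% of all genes. In the 8 male cells 16 of 24 were higher, beside 16.7% of all genes there.

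Of 9093 genes with at least 10 CPM in bAPC 5 or in the other precursors, 335 (3.68%) were higher and 312 (3.43%) were lower in bAPC 5 by at least 1.5-fold. These shares are the background for the counts of genes higher or lower in bAPC 5 than in these other precursors, and counts from other comparisons are given with their own. The median log2 ratio over all 9093 genes was 0.00. Past 2-fold were 123 genes higher (1.35%) and 100 lower (1.1%). bAPC 1 was the nearest cluster: with 1 CPM added to both levels, 7.23% of genes differed from it by 1.5-fold or more, against 11.3% from bCAPs and 15.8% from bAPC 2. By rank correlation of the levels bAPC 1 was also nearest, at 0.966. There bAPC 3 (0.951) and bAPC 4 (0.948) came before bCAPs (0.947), so that the order after bAPC 1 depends on the measure.

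Among genes with at least 50 CPM in bAPC 5, Fxyd6, a regulator of the sodium pump, had the largest ratio, at 56.4 CPM against 5.35, a log2 ratio of 3.40 (3.12 to 3.67). Of the genes above that level it also had the largest gap to the next cluster, the bFAPLs at 7.83 CPM. Thbs4, a gene below 50 CPM that is described further on, had a larger ratio. Egfl6, a secreted matrix protein with EGF repeats, was at 85.5 CPM against 13.5. Cpa6, a carboxypeptidase of the matrix, was at 69.7 CPM against 13.8. C1qtnf3, which encodes the adipokine cartonectin, had 315 CPM (296 to 335) against 63.4 and was found in 87.0% of bAPC 5 cells and 43.2% of the others. Dner, a membrane protein with EGF repeats related to Notch ligands, Capn6, a calpain without protease activity, and Smoc2, a calcium-binding matricellular protein, had log2 ratios of 2.23, 2.03 and 1.95. With Igf2, these 7 genes had the 8 largest ratios to the next highest cluster at 50 CPM or more, from 1.51 for Igf2 to 2.85 for Fxyd6. The remaining genes among the 15 highest were the potassium channel Kcnb2 (2.30), Igf1 (1.94), Mest (1.92), the ADAMTS-like matrix gene Adamtsl1 (1.86), the kainate receptor subunit Grik1 (1.77), the oxidase Nox4 (1.74) and the predicted gene Gm2115 (53.3 CPM against 16.3). All 15 were highest in bAPC 5 among the brown clusters. Kcnb2, Cpa6, Dner, Egfl6, Grik1 and Gm2115, however, had no UMI in 84, 68, 64, 59, 58 and 58 of the 115 cells. The others of the 15 were found in most cells.

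**Figure D2:**
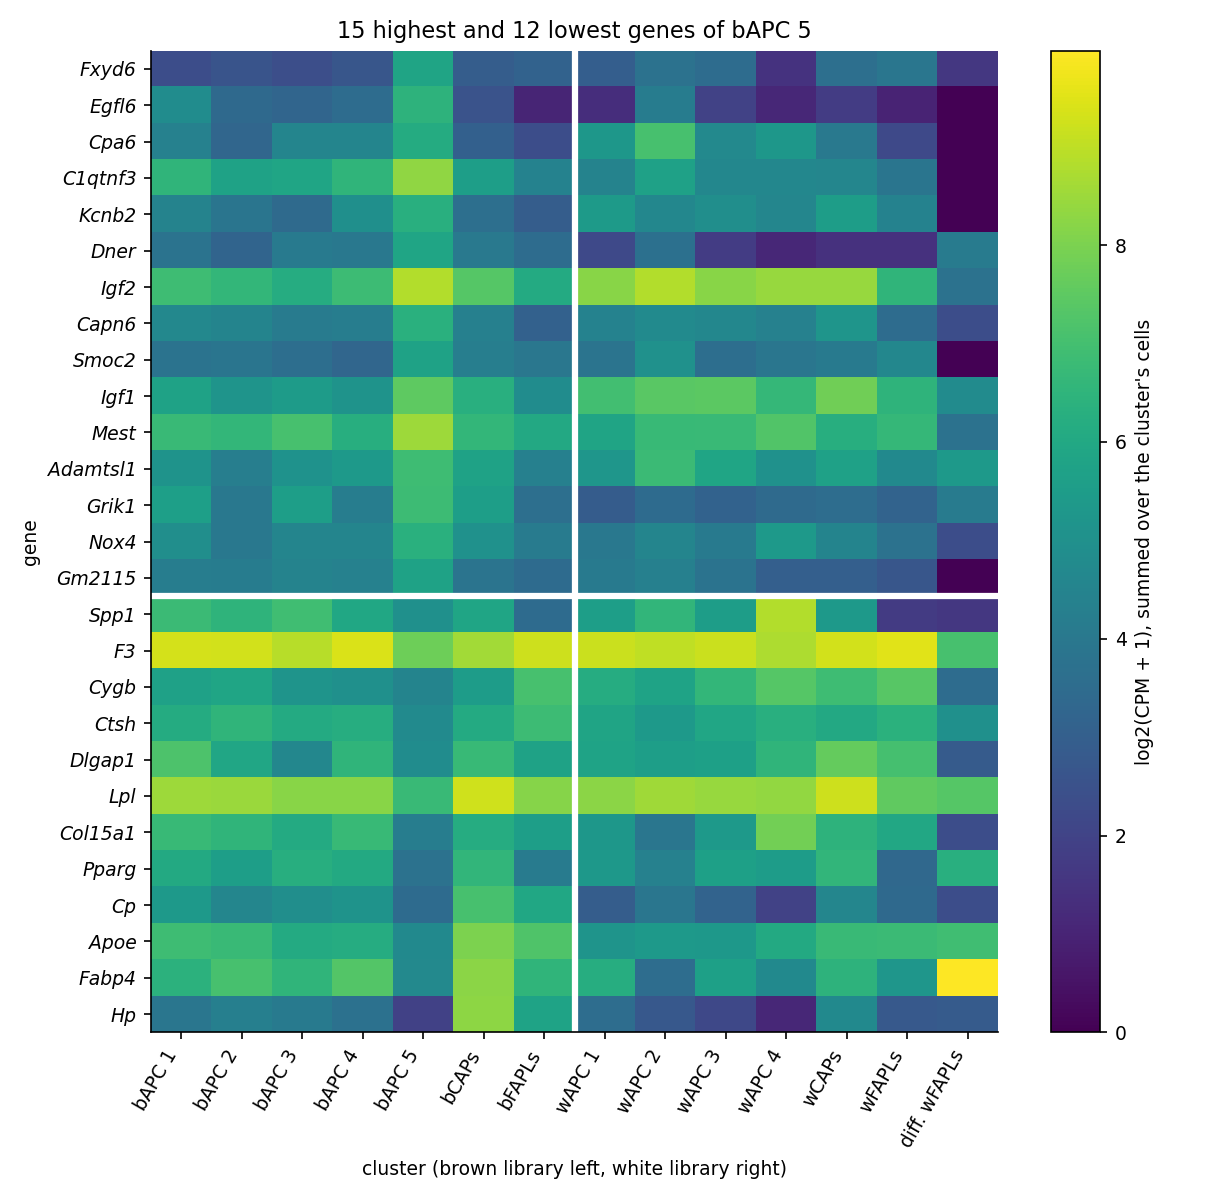
Levels of the 15 genes with the highest log2 ratio at 50 CPM or more in bAPC 5 and the 12 with the lowest at 50 CPM or more in the other precursors, as log2(CPM + 1) summed over the cells of each cluster, with the 7 brown clusters left and the 7 white clusters right. Of the upper 15 rows every one is brightest in bAPC 5 among the brown columns, and Hp, Fabp4 and Apoe are brightest in bCAPs.

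Among genes with at least 50 CPM in the other precursors, Hp, which encodes haptoglobin, had the lowest ratio. It was at 2.79 CPM in bAPC 5 against 308 in bCAPs and 12.0 to 54.7 in the other clusters, a log2 ratio of -4.54 (-5.67 to -3.62) from 9 UMIs. Fabp4, the fatty acid carrier of adipocytes, had a ratio of -2.45 (-2.78 to -2.13), and Pparg, the nuclear receptor that drives adipogenesis, of -2.28 (-2.76 to -1.83). In bAPC 5, 88 of 115 cells had no Fabp4 UMI and 90 had no Pparg UMI, and 1 cell carried 45 of the 80 Fabp4 UMIs of the cluster. Both genes were found together in 7.83% of bAPC 5 cells (3.64 to 14.3) and in 39.1% of the other precursors. Apoe, an apolipoprotein, was at 25.4 CPM against 133, ceruloplasmin (Cp) at 10.2 against 51.7, and Lpl, the lipase that releases fatty acids from lipoproteins, at 108 against 377. Lower too were the basement membrane collagen gene Col15a1 (-2.25), the scaffold gene Dlgap1 (-1.73), the protease gene Ctsh (-1.60), cytoglobin (Cygb, -1.46), tissue factor (F3, -1.40) and osteopontin (Spp1, -1.39). Of these 12 genes, the lowest by ratio, 10 were lowest in bAPC 5 among the 7 clusters, the exceptions being Dlgap1 and Spp1.

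Of 20 adipocyte commitment and early adipocyte genes, 14 reached 10 CPM, of which 5 were lower and 1 was higher, with a median log2 ratio of -0.17. The 5 were Fabp4, Pparg, Lpl, Cebpa, a transcription factor acting with Pparg (-1.12), and Ebf1, an early B-cell factor of adipose progenitors (-0.71). The 1 higher gene was Klf5, a zinc-finger factor of early adipogenesis, at 10.8 CPM against 7.02. Ebf2, which marks brown precursors, was at 213 CPM (198 to 230) in bAPC 5 and 162 in the others, a ratio of 0.40 and so short of 1.5-fold. Pdgfra, a receptor of adipose progenitors, was at 103 CPM against 81.6. Pdgfrb, which the study also uses to mark progenitors, had a log2 ratio of -0.48, within 1.5-fold. With thinned cells its ratio was -0.80 and so lower past 1.5-fold. Of 10 further genes that the study names for brown clusters, chosen on these same cells, Sema3a (39.3 CPM against 32.0), Nav3 (243 against 163), Ptprz1 (24.5 against 17.5), Cdca3 and Kif20a were within 1.5-fold. Lower were Mecom (38.1 against 76.4), Serpinb1a (10.2 against 20.1), Creb5 (13.3 against 24.6), Lrrc15 (10.2 against 17.1) and Cryab (84.2 against 132). In the 8 male cells alone the log2 ratios of Serpinb1a, Creb5 and Lrrc15 were 0.42, 0.0574 and 1.06. Kif20a, Ptprz1 and Cdca3 were higher past 1.5-fold in male cells, at 1.08, 1.51 and 1.29. With labels carried over Kif20a was lower (-0.74), and with thinned cells Ptprz1 was higher (0.79). In the bAPC 5 cells that kept their label when held out, described further on, they were at -0.76 and 0.61. Both Cryab and Nav3 lay close to 1.5-fold: Cryab was within it under 5 alternatives, at -0.30 with labels carried over, and Nav3 was past it under 6, at 0.78 in G1 cells. Of the 5 adipocyte markers Adipoq, Plin1, Cidec, Lep and Ucp1, 4 had no UMI in bAPC 5 and Plin1 had 0.310 CPM.

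Most measured members of the imprinted growth gene list were higher in bAPC 5. Of 18 genes 16 reached 10 CPM, and 12 of these were higher in bAPC 5 and none lower, with a median log2 ratio of 0.83 beside 0.00 over all genes. In the other clusters the count of higher members ran from 0 in bAPC 2, bAPC 3 and bAPC 4 to 3 of 16 in bAPC 1 and in bCAPs. Over all genes 0.246% were higher in bAPC 2, 1.84% in bAPC 3, 3.66% in bAPC 4, 2.32% in bAPC 1, 4.49% in bCAPs and 4.18% in bFAPLs, so that the counts of 0 are near the background of their clusters. Dlk1 marks the label and Igf2 is among the leading genes, and without both the count was 10 of 14 with a median of 0.75.

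Igf2 (ENSMUSG00000048583) was at 455 CPM (432 to 479) in bAPC 5, followed by 160 in bCAPs and 116 in bAPC 1, with a log2 ratio of 2.08 (1.99 to 2.16). H19, the noncoding RNA next to Igf2 that is transcribed from the other parental copy, was at 1086 CPM against 469. Mest, a membrane hydrolase that goes with the growth of fat tissue, was at 367 CPM against 96.8. Grb10, an adaptor that dampens insulin and IGF signalling, had a ratio of 1.08 (1.01 to 1.15). Cdkn1c, the cell cycle inhibitor p57, was at 177 CPM against 96.8, but bAPC 1 was close behind at 152. Peg3, a zinc-finger protein, and Plagl1, a zinc-finger factor that regulates other imprinted genes, had ratios of 0.90 and 0.89. The RNAs Meg3, Rian and Mirg, which lie beside Dlk1 and come from the maternal copy, had lower ratios of 0.61, 0.66 and 0.79. Zim1 reached 0.72 at only 15.8 CPM. The 4 members that were not past 1.5-fold were Ndn, Gnas, Peg10 and Sgce. Summed over the list, a bAPC 5 cell held a median of 8016 CPM (quartiles 6620 and 10071), against 5010 in bAPC 1, the next cluster (quartiles 3872 and 6485). Without Dlk1 the medians were 7069 CPM (quartiles 5835 and 8449) and, in bCAPs, now the next cluster, 4577 (quartiles 3688 and 5551), and the upper quartile of bAPC 1 was 5854, above the lower quartile of bAPC 5. Without Dlk1 and Igf2 the median was 6564 CPM in bAPC 5 (quartiles 5575 and 8094) and 4504 in bAPC 1 (quartiles 3547 and 5661). Single cells of the clusters overlapped.

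**Figure D3:**
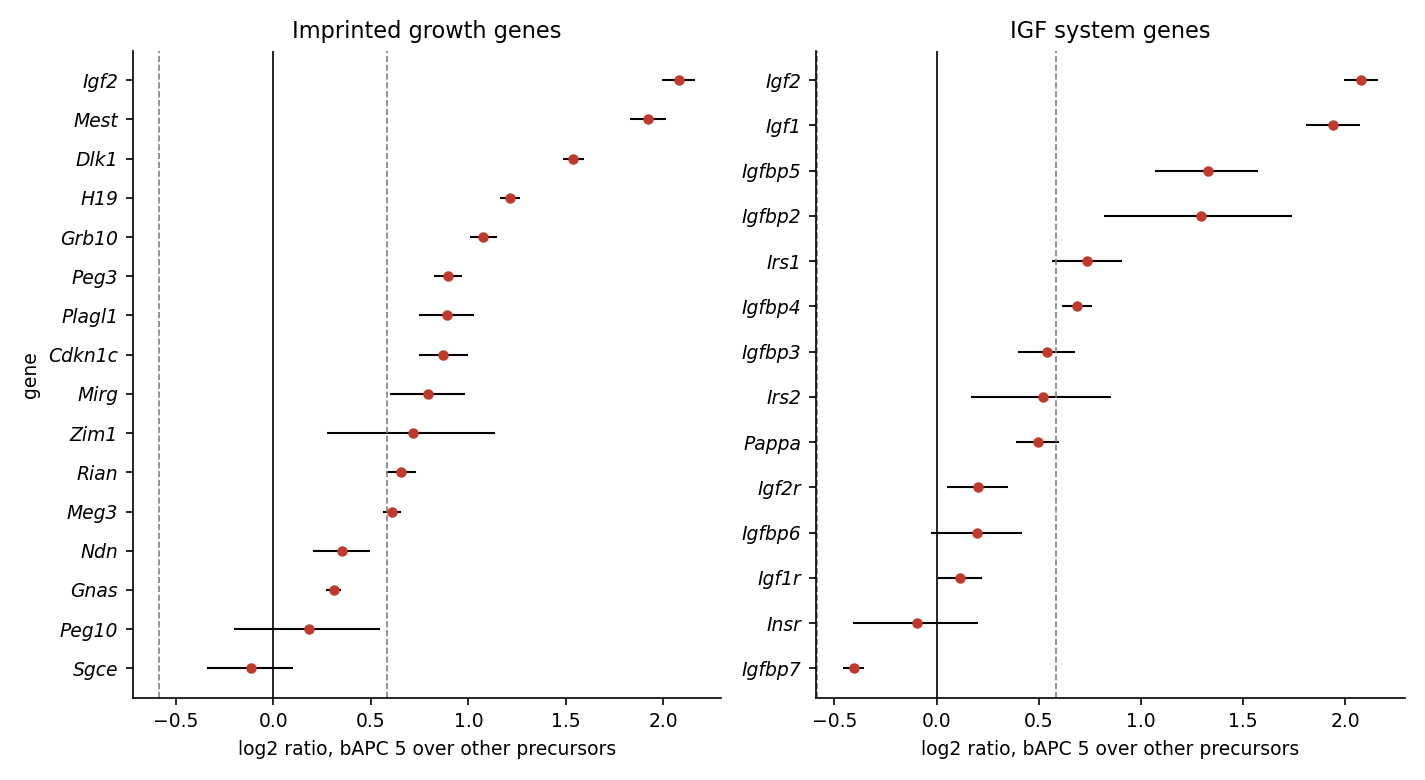
Log2 ratio of bAPC 5 over the other 1884 labelled brown precursors for the imprinted growth genes (left) and the IGF system genes (right) with at least 10 CPM in either group. Points are ratios of summed levels, bars exact 95% conditional binomial intervals for counting error, and dashed lines mark 1.5-fold; 12 of 16 and 6 of 14 genes lie at or beyond the right dashed line.

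Within bAPC 5, pairs of these genes went together only in part. Over the 115 cells the rank correlation of Igf2 with H19 was 0.43, close to the 0.46 over the 1884 other precursors. It was 0.37 for Dlk1 with Cdkn1c, 0.34 for Mest with Peg3 and 0.16 for Igf1 with Dlk1. Over the other precursors these pairs were at 0.32, 0.22 and 0.05. For Igf1 with Mest the correlation was 0.30 against 0.17, and for Dlk1 with Meg3 it was 0.30 in both. All cells share 1 library and the counts are sparse, and so these values are descriptions.

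The promoters of 2 imprinted genes are shown because the Plagl1 motif GGGGCCCC and the TATA box (TATAAA) lie in them. Promoter sequence of RefSeq (GRCm38.p6) was matched for 12 of the 16 genes, and the 250 bases before each start were searched, the palindromic first motif on both strands and the second on the gene's own strand. The Plagl1 motif was found in 1 of the 12, Peg3, and in 0.889% of all 32851 promoters. The TATA box was found in 1 of the 12, Meg3, and in 7.59% of all promoters. The 80 bases around each match follow in lower case, with the motif in capitals. That of Peg3 is chr7:6730577-6730656 on the minus strand and that of Meg3 chr12:109540916-109540995 on the plus strand.
Peg3: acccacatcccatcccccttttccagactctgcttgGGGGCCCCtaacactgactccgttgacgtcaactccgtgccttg
Meg3: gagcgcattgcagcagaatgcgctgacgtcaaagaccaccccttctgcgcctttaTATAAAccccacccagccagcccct

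In the IGF system both ligands and 3 binding proteins were higher, and the receptors were within 1.5-fold. Of 17 listed genes 14 reached 10 CPM, 6 were higher and none was lower by 1.5-fold, with a median log2 ratio of 0.53. Without Igf1, which marks the label, the count was 5 of 13 with a median of 0.52. Beside Igf1 and Igf2, the higher genes were the binding protein genes Igfbp5 (46.8 CPM against 18.6), Igfbp2 (14.6 against 5.94) and Igfbp4 (493 against 306) and the adaptor gene Irs1 (95.4 against 57.2). Few cells carried 2 of these: Igfbp2 had no UMI in 95 of 115 cells and 12 cells held 83.0% of its UMIs, and Igfbp5 had none in 83 cells and 12 held 76.8%. Igfbp4 was found in 111 cells and Irs1 in 92. The receptor gene Igf1r was at 236 CPM (220 to 254) against 218, the clearance receptor gene Igf2r at 123 against 107, and the insulin receptor gene Insr at 29.1 against 31.1. Pappa, the protease that cuts Igfbp4, was at 252 CPM against 179. Igfbp7 had 923 CPM in bAPC 5 against 1223 and was lowest there among the 7 clusters, though short of 1.5-fold. With thinned cells and in female cells 8 of 14 listed genes were higher, beside 6.16% and 4.15% of all genes. There Igfbp3 (0.60 and 0.63) and Irs2 (0.65 and 0.67) came past 1.5-fold. With labels carried over 7 of 14 were higher, beside 3.33%, with Pappa at 0.73. In male cells 5 of 13 were higher and 1 was lower, Irs2 (-2.43), beside 16.7% and 18.5%.

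Transcription factors of body position differed in both directions. Of 45 listed genes 29 reached 10 CPM, with 8 higher and 9 lower in bAPC 5, and the median log2 ratio was 0.12, or -0.02 in G1 cells alone. Hoxa7 was at 1.55 CPM, 5 UMIs in all, against 17.0, a ratio of -3.45 (-5.08 to -2.23). Hoxc8 was at 11.8 CPM (8.33 to 16.1) against 42.7 and Hoxc6 at 15.5 against 39.7. The other lower members were Zic1, Tbx18, Irx1, Twist2, Hoxa3 and Hoxa5. Meox2, a mesodermal homeobox gene, was at 74.3 CPM against 25.2, second to bFAPLs at 97.9. Hoxd3 (13.3 CPM against 5.31) and Hoxd4 (13.9 against 7.55) were higher, as were Irx3, Prrx2, Shox2, Tbx15 and Nr2f1.

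Among 15 brown fat and thermogenic genes only 5 reached 10 CPM, of which 3 were lower and none higher. Zic1, a factor of interscapular brown fat, was at 10.2 CPM against 27.9 and was found in 17.4% of the cells against 42.7%. In the white library no labelled cluster had a UMI of Zic1. Over the 8 male bAPC 5 cells alone, against 264 other male cells, the Zic1 ratio was 0.09. Lhx8, a homeobox factor of brown precursors, was at 5.88 CPM against 27.7, and Esrrg, a nuclear receptor of oxidative metabolism, at 10.5 against 25.3. Hoxc10, which was at 73.7 to 111 CPM in the white clusters, had no UMI in bAPC 5, where a count of 0 allows up to 0.929 CPM.

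**Figure D4:**
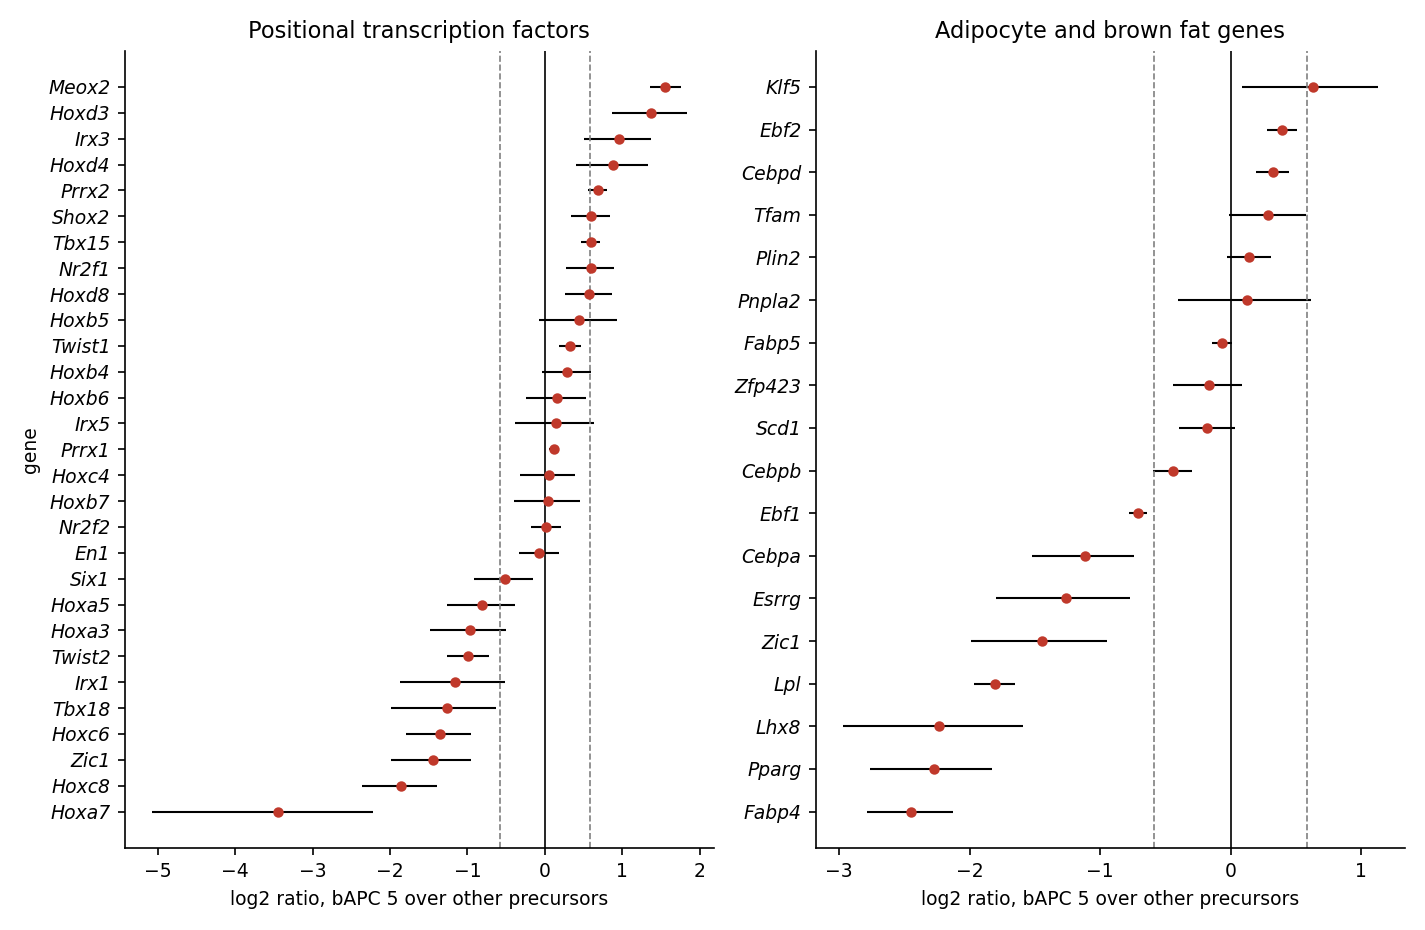
Log2 ratio of bAPC 5 over the other labelled brown precursors for positional transcription factors (left) and for adipocyte and brown fat genes (right) with at least 10 CPM in either group. Points are ratios of summed levels, bars exact 95% intervals for counting error, and dashed lines mark 1.5-fold; Hoxa7 is the lowest point on the left and Fabp4 on the right.

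Matrix and signalling genes formed no single direction. Of 19 collagen genes 3 were higher and 4 lower: Col23a1, a membrane collagen, was at 66.6 CPM against 23.4, and the basement membrane chains Col4a1 and Col4a2 were at 152 against 370 and 88.3 against 206. Of 20 measured axon guidance genes, which steer growing cells and vessels, 5 were higher (Robo2, Sema3c, Epha4, Nrp2 and Robo1) and 5 lower (Epha7, Unc5c, Slit3, Plxnd1 and Plxna2). Robo2, a Slit receptor, was at 48.3 CPM against 15.9, while its ligand gene Slit3 was at 301 against 628. Of 16 chemokine and cytokine genes 6 were lower, among them the vascular growth factor gene Vegfa (38.7 CPM against 74.4), and 3 were higher (Angptl1, Cxcl14 and Il6). Of 9 measured genes that the study names for FAPLs, 6 were lower and 2 were higher, Meox2 and Cxcl14; that list was chosen by the study on these samples. Of 6 measured complement and acute-phase genes, C1qtnf7, C1s1 and C1ra were higher and Hp and Cp lower. In matrix proteases and inhibitors 2 of 15 were higher and 4 lower, in BMP and TGF-beta genes 3 and 2 of 20, in leucine-rich proteoglycans 2 and 2 of 8, and in interstitial progenitor markers 2 and 1 of 7. In dermal fibroblast markers 1 of 7 was higher and 2 lower, in hedgehog and FGF genes 1 of 10 was higher (Hhip), in receptors and ligands of the PDGF, KIT and growth hormone list 1 of 13 (Thrb), and in interferon genes 1 and 1 of 5. Thrb had a log2 ratio of 1.98, and of -0.43 in male cells alone.

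Stress and metabolic lists held almost no gene past 1.5-fold. None of 19 cholesterol synthesis genes was, although 17 had a ratio above 0 (median 0.16), and none of 12 smooth muscle genes was. In G1 cells alone Mvd of the first list (0.63) and Actg2 (-0.95) and Synpo2 (-0.82) of the second were past 1.5-fold. Among all genes 4.48% were higher and 3.92% lower there. Mvd was also past it by the mean of CPM per cell (0.61). Synpo2 was in female cells (-0.65) and with the other clusters weighted equally (-0.68). Actg2 was with labels carried over (-0.76), thinned cells (-0.68), the mean of CPM per cell (-0.74), equal weights (-0.69) and female cells (-0.67). It was at 0.05 in male cells. Of 14 p53 target genes only Gdf15 was lower, at 6.81 CPM against 26.1, and 13 of the 14 had a ratio of 0 or less (median -0.34). One gene was lower in each of the lists for glycolysis and hypoxia (Vegfa), ER stress (Sdf2l1), immediate early genes (Egr2), elastic fibres (Loxl2) and Wnt signalling (Rspo2), and 2 in the list of Notch and YAP targets (Ankrd1 and Notch3). Sdf2l1 (-0.62) was within 1.5-fold with labels carried over (-0.54), with thinned cells (-0.51) and in G1 cells (-0.56), and was at 0.31 in male cells. Rspo2 (-0.72) and Notch3 (-0.72) were within it in G1 cells (-0.42 and -0.49). Rspo2 also was in the bAPC 5 cells that kept their label when held out (-0.38).

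Thbs4, a thrombospondin of tendon and muscle matrix, was the member with the largest ratio on any list. It was at 46.1 CPM (39.0 to 54.2) in bAPC 5 against 0.697, and at 1.19 CPM or less in every other brown cluster. It was found in 32 of 115 cells, 27.8%, and in 1.17% of the others, and 12 cells held 77.2% of its UMIs. The 32 cells had 1361 CPM of Dlk1 (1286 to 1439) and the 83 others 890 (852 to 929), while Pparg was at 12.2 and 12.5 CPM. Other tendon and cartilage markers were at similar levels in both groups: Tnmd was at 207 CPM against 199, Sox9 at 99.7 against 91.9, and Acan had no UMI in bAPC 5. Kcnb2 was more uneven still, with no UMI in 84 cells, 84.2% of its UMIs in 12 cells and 90 of them in 1 cell. Its log2 ratio was 1.83 with labels carried over. C1qtnf3 was more even, with a UMI in all but 15 cells.

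Of the markers of other cell types, those of glial, myeloid, myogenic, mesothelial and mature fat cells summed to 11.8 CPM or less for each type in bAPC 5. The 5 glial markers summed to 8.98 CPM against 17.5 in the other precursors and 1094 in glial cells, with S100b the most abundant at 6.19 CPM and Erbb3 at 0. The 5 myogenic markers summed to 2.17 CPM, with Pax7, Myod1 and Myf5 at 0. The 5 endothelial markers summed to 25.1 CPM, of which Egfl7 made up 17.3, and the 5 mural markers to 43.1 against 68.3, with Myh11 at 17.0. The 3 tendon markers summed to 217 CPM against 206 and the 3 cartilage markers to 104 against 95.6. The 4 mesothelial markers summed to 0.619 CPM.

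When labelled cells were held out and named again by vote of their 15 nearest labelled neighbours, 76 of the 115 bAPC 5 cells (66.1%) got their own label back, 26 were named bAPC 1, 12 bAPC 2 and 1 bFAPLs. The share was 67.3% in bAPC 3 and 71.1% in bAPC 4, the other small clusters, and 83.8% to 93.5% in the 4 larger ones. Conversely, only 3 cells of other clusters were named bAPC 5. The 39 bAPC 5 cells that were named otherwise had 114 CPM of Igf1 (95.6 to 136) and the 76 that kept their label 214 (195 to 235). Dlk1 was at 1039 CPM in the former and 1012 in the latter, and Mest at 202 and 457. Both sets were above the 46.6 CPM of Igf1 in the other precursors. In S-phase bAPC 5 cells Igf1 was at 78.2 CPM (55.1 to 108), in G2/M at 143 and in G1 at 210 (191 to 230), from 14, 16 and 85 cells, while Dlk1 was at 1118, 1204 and 955 CPM.

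By Xist and Y-linked transcripts, 105 of 115 bAPC 5 cells, 91.3% (84.6 to 95.8), were called female and 8 male, against 82.3% female (80.5 to 84.0) of the other precursors. The other clusters ran from 76.1% in bAPC 4 to 85.8% in bAPC 2. At 10000 UMIs a cell the shares were 88.7% and 80.8%. The pups of the pool carry no label of their own, and so sex and pup of origin cannot be told apart. Of 310 measured genes of chromosome X, 22 were higher in bAPC 5 (7.10%), Egfl6 and Capn6 among them. Among female cells only these were 23 of 304 (7.57%, beside 4.15% of all genes), and the ratios of Egfl6 and Capn6 were 2.67 and 2.06. Female cells alone gave log2 ratios of 2.12 for Igf1 and 1.48 for Dlk1. The 8 male cells against 264 other male cells gave 0.85 and 2.14.

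Among the clusters of the white library wAPC 2, with 1015 CPM of Dlk1, departed from its own library in the way most like bAPC 5. Depot and library cannot be told apart, and so each cluster was set against the other labelled precursors of its own library, with no cells in common. Across 9093 genes, which are not independent replicates, the correlation of these log2 ratios with those of bAPC 5 was 0.39 for wAPC 2 and between -0.11 and 0.04 for the other 6 white clusters. Of the 253 genes higher in bAPC 5 that were measured in both libraries, 90 (35.6%) were also higher in wAPC 2, and they made up 39.5% of the 228 in wAPC 2. In that library 3.17% of 9052 measured genes were higher in wAPC 2 and 2.03% lower. Among the 8785 genes measured in both libraries, which are the background here, 2.60% were higher in wAPC 2 and 1.91% lower. Of the same 8785 genes, 253 were higher and 286 lower in bAPC 5. Of the 286 lower genes 73 (25.5%) were also lower in wAPC 2, 43.5% of its 168. In the opposite direction went 10 of the 253 (3.95%), beside 1.91% of the genes measured in both that were lower in wAPC 2, and 17 of the 286 (5.94%), beside 2.60% that were higher.

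The clusters shared Cpa6 (134 CPM in wAPC 2, log2 ratio 2.60), Egfl6 (17.0, 3.15), Dner (12.0, 2.30), C1qtnf3 (51.8, 1.30) and Smoc2 (31.7, 1.04). Of the 15 imprinted genes measured in white cells 8 were higher in wAPC 2 and none lower, with Cdkn1c at 599 CPM, Plagl1 at 187 and Igf2 at 455. Pparg at 20.0 CPM and Fabp4 at 11.0 were lower there too, with log2 ratios of -1.53 and -2.82. Fxyd6, Grik1 and Kcnb2, however, had log2 ratios of 0.32, 0.21 and -0.69 in wAPC 2. Igf1 had a ratio of 0.09 there, and in the white library it was highest in wCAPs at 223 CPM, with 172 in wAPC 2 and 174 in wAPC 3. The positional genes Hoxa7 and Hoxc8, low in bAPC 5, were at 10.6 and 52.1 CPM in wAPC 2 and within 1.5-fold of the other white precursors. Thbs4 had no UMI in wAPC 2.

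**Figure D5:**
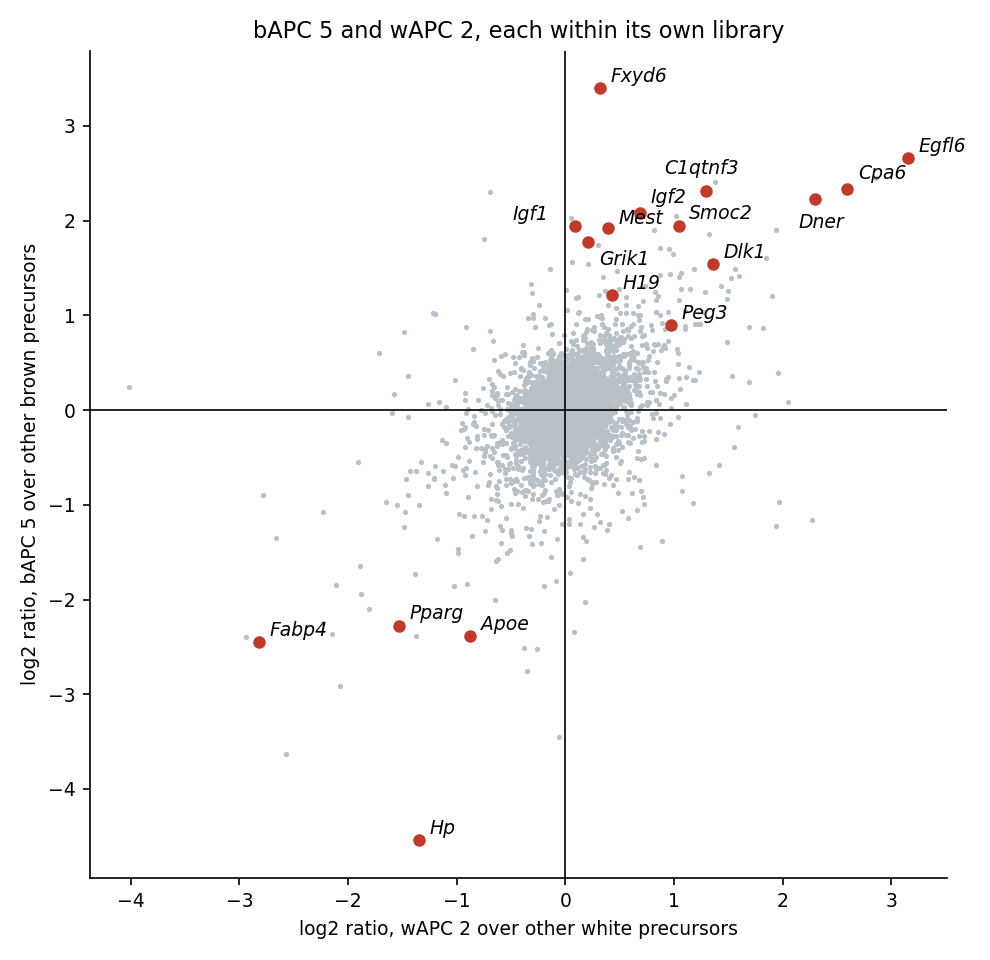
Log2 ratio of each of 8785 genes in bAPC 5 over the other brown precursors (vertical) against that in wAPC 2 over the other white precursors (horizontal). Grey points are genes and red points the named ones; Egfl6, Cpa6, Dner and Dlk1 lie high on both axes, Fabp4 and Pparg low on both, and Fxyd6 and Igf1 high on the vertical axis alone.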

How the data were processed

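The deposited files hold counts of UMIs per gene and cell that the authors made with Cell Ranger 7.0.1 against mm10 (GRCm38), not normalized. Labels came from the authors' barcode table, of which only a part, 1999 brown and 1999 white cells, was used here. All 1999 brown cells met the study's limits on genes (3900 to 7700), UMIs (6000 to 60000) and mitochondrial share (1.7 to 5%), as did 6137 of all 7009. No doublet caller was used. Counts were summed per cluster with Python 3.11.15, numpy 2.4.6 and scipy 1.17.1. Cell cycle phase used the gene lists of Seurat 5.3.0. Labels were carried over with 15 neighbours on 10 principal components of 2000 variable genes (scikit-learn 1.9.0). A cell was female with UMIs of Xist only and male with UMIs of Ddx3y, Eif2s3y, Kdm5d or Uty only.

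Genes were called higher or lower past 1.5-fold with at least 10 CPM in either group. Named were the 15 highest with at least 50 CPM in bAPC 5, the 12 lowest with 50 CPM elsewhere, the 8 with the largest gap to the next cluster at 50 CPM, the IGF genes, genes the study names for brown clusters and 3 examples from each of the other lists, 30 lists in all. Further list members were named where a count was given. The cluster, its members and the lists were chosen with earlier results of these data known. Ratios and intervals were tested on simulated data, with gene sums drawn as independent Poisson counts, the model behind the ratio intervals. Uneven spread of UMIs between cells was not simulated, and so the test does not cover it. Coordinates are from GENCODE M21 by Ensembl ID.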

Additional observations from a re-analysis of the deposited data

How the results depend on the processing

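No paired analysis was possible because each depot has 1 library, and no library could be left out. Over 126 genes and 9 alternatives, 1113 log2 ratios were computed again, of which 911 stayed within the counting interval, 191 moved beyond it in the same direction or from an uncalled value, and 11 of called genes reversed. All 11 reversals came from male cells only, 8 against 264, with Thrb at -0.43, Trps1 -0.0208, Ogn -0.22, Sdf2l1 0.31, Ly6a 0.45, Lrrc15 1.06, Creb5 0.0574, Serpinb1a 0.42, Twist2 0.11, Cxcl5 2.19 and Zic1 0.0879. Of the named genes past 1.5-fold, 73 to 81 of them measured under an alternative, 14 no longer were in the same direction in male cells and 0 to 4 under the others, while 16 and 0 to 14 other named genes came past it. In male cells Igf1 was at 0.85 and Dlk1 at 2.14, and 1588 genes were higher and 1760 lower. Thinning to 10000 UMIs gave 564 and 563 genes and Igf1 at 2.09, at least 50 CPM gave 111 and 86, and 2-fold gave 123 and 100. Labels carried over to all 5963 brown precursors gave Igf1 at 2.20, Dlk1 at 1.42 and a share of 283 cells, 4.75% (4.22 to 5.32). That interval does not cover the loss of bAPC 5 cells in the neighbour vote. Female cells only gave Igf1 at 2.12 and Dlk1 at 1.48, other clusters weighted equally Dlk1 at 1.73, and the 76 cells that kept their label, chosen after seeing the data, Igf1 at 2.20. The causes were not tested. Of the imprinted genes 12 of 16 were higher under the other alternatives on cells, depth and weights, beside 3.33% to 6.16% of all genes. The count was 8 of 17 in male cells only (beside 16.7% of all genes), 11 of 14 at 50 CPM (3.06%) and 5 of 16 at 2-fold (1.35%). With 3228804 UMIs in bAPC 5, a count of 0 allows 0.929 CPM.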
